A study of Mus musculus with 24 samples.

Results

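The 9 genes that mark the early stages of the oligodendrocyte (OL) lineage were followed in spinal cord after contusive spinal cord injury (SCI): Pdgfra, Cspg4, Ptprz1, Sox6, C1ql1, Gpr17, Neu4, Bcas1 and Enpp6. They were taken by symbol from a raw count table of 21965 genes, and all 9 had enough counts to be tested. The OL-Ribotag mice carried a tamoxifen-dependent Cre active in OLs, which switches on an HA-tagged RPL22 (rpl22HA), a protein of the large ribosomal subunit. Anti-HA beads then took ribosomes of tagged cells with the mRNA on them (the OL translatome, called OL here), and the lysate before the beads gave RNA of all spinal cord cells (total RNA). Polyadenylated RNA of both was sequenced.

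All groups were female mice with the same genotype, and all received tamoxifen, the uninjured ones included. The 4 tissue groups were naive (uninjured) cord and the segment around a T9 contusion at 2, 10 and 42 days post-injury (dpi 2, dpi 10 and dpi 42), with injury at a labelled age of 10-12 weeks. In the study's methods, naive cord was collected together with the dpi 42 group at a matched age and time since tamoxifen. Injury followed tamoxifen at a fixed interval in those methods, so dpi 2 and dpi 10 mice were younger and nearer to tamoxifen than naive ones. For dpi 2 and dpi 10, effects of age or time since tamoxifen and of injury cannot be told apart. Each group had 3 pools of 2 mice, and a pool gave 1 OL and 1 total RNA library, so n = 3 for each of the 8 sets of libraries. The promoter that drives Cre is also active in Schwann cells, and a tag that Cre switched on in a precursor would be passed on to its progeny.

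OL precursor cells (OPCs) are the dividing cells of the lineage in the adult cord. They need PDGF signalling through PDGFRA to proliferate and survive, they carry the NG2 proteoglycan encoded by Cspg4, and they multiply after cord injury and give rise to new OLs. On leaving the cycle they pass through a brief committed stage, in which Gpr17 and Neu4 are high, and then become newly formed OLs, which express Enpp6 and Bcas1 before and while they myelinate. Because Cre here is driven from a promoter of OLs, the comparison of OL with total RNA asks which early lineage transcripts came down with the tagged ribosomes.

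Promoter windows are shown for the pair of OPC genes that rose in total RNA at dpi 2, Pdgfra and Cspg4, and for Enpp6, which fell in OL at dpi 2. They run from 250 bases before to 50 bases after the RefSeq start on GRCm38.p6, 5′ to 3′ on the plus strand: chr5:75152001-75152300, chr9:56864854-56865153 and chr8:46986637-46986936. Capitals mark CANNTG, the E-box read by basic helix-loop-helix factors such as OLIG2, and ACAAAG or ACAATG on either strand, a core read by SOX factors such as SOX10.
Pdgfra: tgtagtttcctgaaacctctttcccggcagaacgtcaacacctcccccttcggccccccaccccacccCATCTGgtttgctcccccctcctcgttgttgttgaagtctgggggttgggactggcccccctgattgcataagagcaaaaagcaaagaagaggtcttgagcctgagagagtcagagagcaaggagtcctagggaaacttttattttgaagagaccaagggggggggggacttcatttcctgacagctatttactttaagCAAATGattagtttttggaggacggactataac
Cspg4: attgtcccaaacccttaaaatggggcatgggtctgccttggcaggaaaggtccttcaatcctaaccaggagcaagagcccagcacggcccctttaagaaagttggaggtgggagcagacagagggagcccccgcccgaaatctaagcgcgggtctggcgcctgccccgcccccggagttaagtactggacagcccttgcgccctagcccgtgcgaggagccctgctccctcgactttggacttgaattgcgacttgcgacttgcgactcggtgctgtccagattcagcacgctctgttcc
Enpp6: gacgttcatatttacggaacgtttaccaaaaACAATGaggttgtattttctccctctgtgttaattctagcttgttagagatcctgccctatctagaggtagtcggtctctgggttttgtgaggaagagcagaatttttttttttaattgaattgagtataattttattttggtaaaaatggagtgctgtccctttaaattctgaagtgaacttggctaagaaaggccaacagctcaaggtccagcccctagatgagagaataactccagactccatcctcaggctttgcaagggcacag
The Pdgfra window held 2 CANNTG matches and no SOX core, the Cspg4 window held neither, and the Enpp6 window held 1 SOX core and no CANNTG. Of 32851 RefSeq promoter windows of this length, 72.3% held CANNTG and 28.6% held a SOX core, so the matches describe these letters and no more. In all, 6 of the 9 genes matched this set of windows.

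Libraries held 25840127 to 32987841 counts on genes, so 3 counts are worth 0.0909 to 0.116 counts per 1000000 (CPM). Values are CPM after TMM scaling, q is the p-value of the edgeR quasi-likelihood test adjusted by Benjamini-Hochberg over 17167 genes, and a gene was called at q under 0.05. All 10 mature OL genes of a fixed list (Mbp, Mog and others) were called higher in OL at each of the 4 times. In 4 OL libraries, naive 3, dpi 2 library 3, and dpi 42 libraries 1 and 2, a list of 9 astrocyte genes summed to 9900 to 14905 CPM against 7085 to 9566 CPM in total RNA, and dpi 10 library 2 stood at 7735 CPM. The other 7 OL libraries held 2291 to 4212 CPM. The Schwann cell list (5 genes) summed to 141 CPM in OL naive 3 and to 75 and 74.1 CPM in OL naive 1 and 2. Both libraries of dpi 2 pool 2 held 2459 and 2813 counts on 5 Y-linked genes, against 5 to 118 in the others, though all mice were labelled female. The labels of 2 dpi 42 libraries contradict each other on OL or total RNA, and their description was followed. The mature OL list summed to 82250 CPM in that used as OL, against 88917 and 105382 CPM in the other OL dpi 42 libraries. In that used as total RNA it summed to 17992 CPM, against 17733 and 16376 CPM in the other total RNA libraries of dpi 42. On this list both libraries matched the description.

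Among the 9 genes, Bcas1 and Enpp6, listed as newly formed OL genes, were high in OL, while the OPC and committed precursor genes were low there. This did not extend to all genes of the later stages, since those described further below split between OL and total RNA. Bcas1 and Enpp6 exceeded their total RNA level in all 4 tissue groups. The other 7 genes were lower in OL in naive cord and at dpi 2 and dpi 10, and 5 of them were lower at dpi 42, where Sox6 and C1ql1 did not pass. Of all tested genes 24.9% were called higher and 30.5% lower in OL in naive cord, 24.8% and 28.8% at dpi 2, 25.2% and 28.8% at dpi 10, and 24.9% and 28.9% at dpi 42. The median log2 fold change of the 9 genes was -1.97, -1.86, -2.14 and -2.05 in this order, beside -0.27, -0.19, -0.22 and -0.18 over all tested genes. In bulk RNA, fewer cells of a type and less RNA per cell cannot be told apart.

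**Figure D1:**
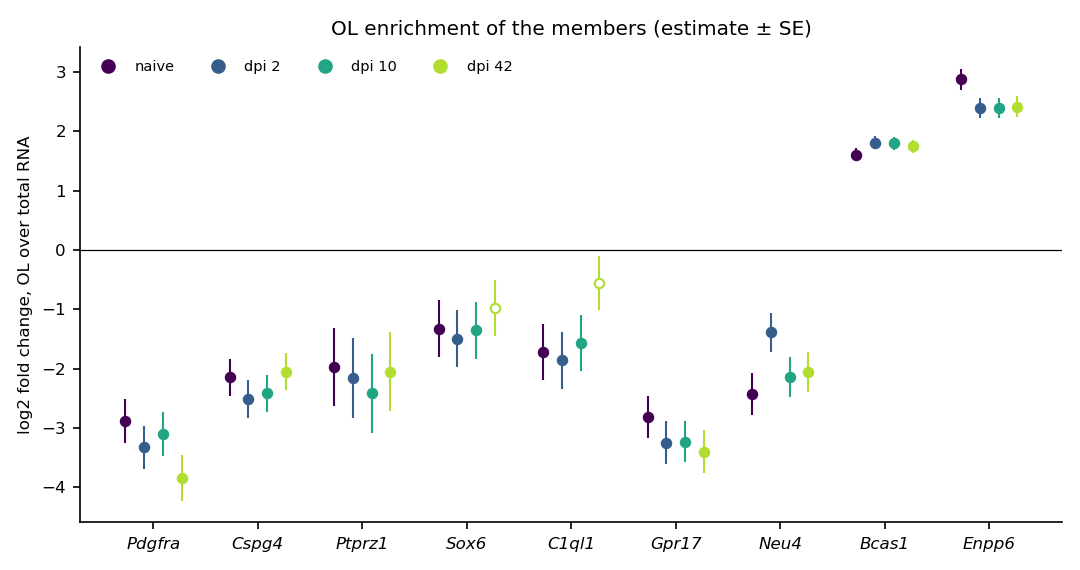
Log2 fold change of OL against total RNA for each of the 9 genes in naive cord and at dpi 2, dpi 10 and dpi 42, with bars of 1 standard error (n = 3 OL and n = 3 total RNA libraries). Bcas1 and Enpp6 lie above 0 at all times (1.61 to 2.88), and the other 7 genes lie below 0 (-3.84 to -0.56).

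Levels can be compared between genes per kilobase of exon. In naive OL, Bcas1 stood at 555 CPM per kb and Enpp6 at 69.6. C1ql1, Ptprz1 and Gpr17 followed at 4.28, 2.84 and 2.30 CPM per kb, with SDs of C1ql1 and Ptprz1 (2.86 and 3.28) as large as the gaps between them. Without OL naive 3 the Ptprz1 mean was 0.947 CPM per kb. Pdgfra, Neu4, Sox6 and Cspg4 lay at 0.660, 0.643, 0.637 and 0.445 CPM per kb and did not differ beyond their spread. In naive total RNA the order was Bcas1 (182 CPM per kb), Gpr17 (16.3), C1ql1 (14.1), Ptprz1 (11.2), Enpp6 (9.44), Pdgfra (4.89), Neu4 (3.46), Cspg4 (1.97) and Sox6 (1.60). Enpp6 thus took rank 2 in OL and rank 5 in total RNA.

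In total RNA, 3 genes rose at dpi 2 (Pdgfra, Cspg4 and Bcas1) and none fell, while 16.4% of all tested genes rose and 20.8% fell. With any 1 of the 6 libraries compared left out, 1 to 2 rose. At dpi 10, 2 rose (Gpr17 and Enpp6) and 1 fell (Bcas1), beside 13.9% and 18.2% of all genes. At dpi 42 none of the 9 was called, with 3 at an unadjusted p under 0.05 by edgeR and 0 called by DESeq2 (which gave no adjusted p for Ptprz1 in this or any other comparison), beside 10.4% and 12.1% of all genes. Bcas1, a newly formed OL gene, was thus called in opposite directions at dpi 2 and dpi 10.

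The spread that enters these tests is shared with OL, where most of the OPC genes varied far more between libraries. When total RNA of naive and injured tissue was fitted on its own, more of the genes passed, as did more of all tested genes, with 26.1% up and 26.1% down at dpi 2, 27.9% and 26.1% at dpi 10, and 20.1% and 17.9% at dpi 42. At dpi 2, Ptprz1 also fell (log2 fold change -0.48, q = 0.00552). At dpi 10, 6 rose and 2 fell, with Cspg4 at 0.90 (q = 9.0e-06), C1ql1 at 0.97 (q = 3.3e-06), Pdgfra at 0.49 (q = 6.0e-05), Neu4 at 0.57 (q = 0.00273) and Ptprz1 at -0.58 (q = 9.3e-06) added. At dpi 42, 4 rose (Cspg4, C1ql1, Gpr17 and Neu4, by 0.51 to 1.08) and Ptprz1 fell (-0.49, q = 0.00248).

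In OL, Cspg4 and Bcas1 rose at dpi 2 and Gpr17 and Enpp6 fell, beside 18.4% of all tested genes that rose and 20% that fell. At dpi 10 none was called by edgeR or DESeq2, with 1 at an unadjusted p under 0.05 (Neu4), beside 9.62% and 8.59% of all genes. At dpi 42 C1ql1 rose and Enpp6 fell, beside 16.2% and 16.9%. The comparisons of dpi 2, dpi 10 and dpi 42 share the naive libraries.

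**Figure D2:**
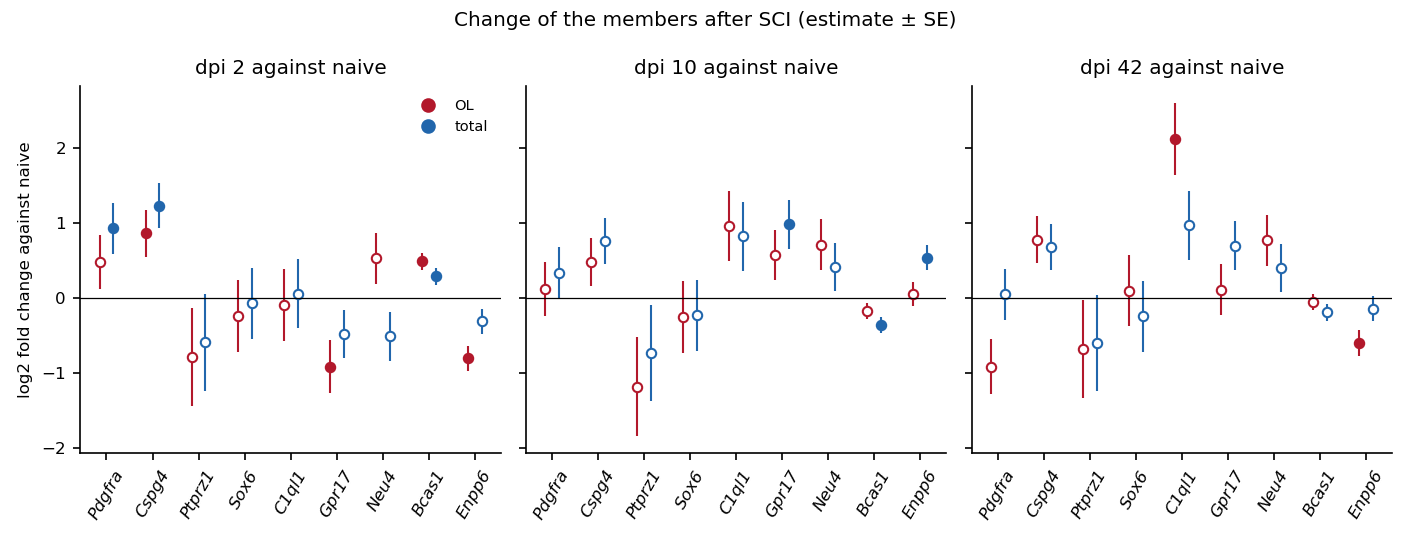
Log2 fold change against naive of each of the 9 genes at dpi 2, dpi 10 and dpi 42, for OL and total RNA, with bars of 1 standard error (n = 3 libraries per group). Bcas1 was called up in both at dpi 2 (0.49 and 0.29), and C1ql1 has the highest value in OL at dpi 42 (2.12).

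Pdgfra encodes the receptor of PDGF-A and lies at chr5:75152292-75198215 (plus strand, GRCm38). In total RNA it measured 49.5, 51.2 and 46.3 CPM in naive cord, 92.4, 93.9 and 93.5 at dpi 2, 59.9, 62.2 and 64.5 at dpi 10, and 51.1, 44.2 and 56.8 at dpi 42. The dpi 2 libraries lay above all others, and those of dpi 42 overlapped naive. The log2 fold change at dpi 2 was 0.93 ± 0.34 (SE, 1.90-fold, q = 0.0370). It kept its size (0.89 to 0.96) when any of the 6 libraries was left out, yet then missed the threshold each time (q 0.0694 to 0.101). In total RNA fitted alone it was 1.05 (q = 3.0e-06).

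In OL, Pdgfra measured 4.54, 3.22 and 12.1 CPM in naive cord, 8.92, 4.82 and 14.1 at dpi 2, 5.59, 6.92 and 9.10 at dpi 10, and 3.22, 4.70 and 2.70 at dpi 42. These are 5.17% to 24.7% of the total RNA mean of the same time, and no OL library reached the lowest total RNA library. OL against total RNA gave -2.88 ± 0.37 in naive cord (q = 8.4e-07), -3.33 ± 0.37 at dpi 2 (q = 1.8e-07), -3.11 ± 0.37 at dpi 10 (q = 4.0e-07) and -3.84 ± 0.39 at dpi 42 (q = 3.6e-08), so Pdgfra was 14.3-fold lower in OL at dpi 42. Without OL naive 3 the naive value was -3.50. No change in OL passed the test, with 0.48 at dpi 2 (q = 0.315), 0.12 at dpi 10 (q = 0.915) and -0.91 at dpi 42 (q = 0.0686). Leaving out OL naive 3 gave a called rise of 1.19 at dpi 2 (q = 0.00427) and of 0.89 at dpi 10 (q = 0.0498), and the fall at dpi 42 was called without OL naive 1 (-1.17), OL naive 2 (-1.29) or OL dpi 42 library 2 (-1.22).

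Pdgfra is also transcribed in fibroblasts, and markers of other cells rose beside it in total RNA. All 5 genes of the fibroblast list (Col1a1, Col1a2, Col3a1, Dcn and Lum) rose at each time, and the list summed to 57.7 to 78.9 CPM in naive cord, 397 to 841 at dpi 2, 2083 to 2345 at dpi 10 and 486 to 795 at dpi 42. Its peak fell at dpi 10, when Pdgfra was lower than at dpi 2 in each library. All 8 proliferation genes (Mki67, Top2a and others) rose at dpi 2, and their sum went from 3.33 to 3.90 CPM in naive cord to 198 to 217 at dpi 2 and 35.6 to 44.7 at dpi 10. No gene of either list was at 0 in total RNA. The part of either in the Pdgfra result was not tested.

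Cspg4 encodes NG2, a proteoglycan of the OPC surface that pericytes carry as well, and lies at chr9:56865033-56899870 (plus strand). It measured 23.2, 23.3 and 24.1 CPM in naive total RNA, 49.9, 50.9 and 65.1 at dpi 2, 41.1, 45.4 and 32.7 at dpi 10, and 41.0, 31.3 and 41.2 at dpi 42. Every injured library lay above every naive one. The rise at dpi 2 was 1.23 ± 0.30 (2.35-fold, q = 0.00268), and the values at dpi 10 (0.76, q = 0.0598) and dpi 42 (0.68, q = 0.112) did not pass. The dpi 10 value was called with DESeq2 size factors (0.81, q = 0.0445), with library sizes alone (0.93, q = 0.0328) and by DESeq2 (0.81, q = 0.0262). The 7 pericyte genes (Pdgfrb, Rgs5 and others) summed to 124 to 148 CPM in naive total RNA, 193 to 268 at dpi 2, 416 to 488 at dpi 10 and 254 to 410 at dpi 42. Of these, 3 rose at dpi 2, 3 at dpi 10 and 2 at dpi 42, and none was at 0 in total RNA. Their part in the Cspg4 result was not tested.

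In OL, Cspg4 stood at 4.66, 3.64 and 7.61 CPM in naive cord, 8.62, 6.16 and 14.1 at dpi 2, 7.81, 10.0 and 4.49 at dpi 10, and 12.4, 8.47 and 6.57 at dpi 42. It was lower than in total RNA at all times (-2.15 ± 0.32, -2.52 ± 0.32, -2.42 ± 0.32 and -2.05 ± 0.31, q 8.6e-07 to 1.0e-05). The OL rise at dpi 2 was 0.86 ± 0.31 (1.81-fold, q = 0.0358), although the dpi 2 and naive libraries overlapped. The pericyte list summed to 7.7 to 37 CPM in naive OL, 13.2 to 29 at dpi 2, 34.9 to 58.2 at dpi 10 and 53.7 to 57.2 at dpi 42, with 3, 3 and 4 of its 7 genes called up in OL against naive and 1 called down at dpi 2. The part of pericytes in the OL values was not tested. The Cspg4 rise missed the threshold without OL naive 1 (q = 0.137), OL naive 2 (q = 0.201), OL dpi 2 library 1 (q = 0.0584) or OL dpi 2 library 3 (q = 0.323). At dpi 42 the OL value of 0.78 did not pass (q = 0.0616), and was called without OL naive 3 (1.07) or OL dpi 42 library 3 (0.89).

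Ptprz1, a receptor-type tyrosine phosphatase of OPCs and astrocytes, lies at chr6:22875502-23052916 (plus strand). It varied widely between OL libraries, at 14.1, 12.9 and 94.4 CPM in naive cord, 13.9, 6.20 and 50.5 at dpi 2, 10.1, 28.3 and 15.3 at dpi 10, and 31.1, 33.8 and 10.6 at dpi 42. Naive library 3 was over 6-fold the other naive libraries. Total RNA was even, at 169, 144 and 165 CPM in naive cord, 110, 87.9 and 119 at dpi 2, 94.3, 97.5 and 96.2 at dpi 10, and 95.0, 103 and 116 at dpi 42. All 9 injured total RNA libraries lay below the 3 naive ones, but with the shared spread the values of -0.59, -0.73 and -0.60 did not pass (q 0.422 to 0.554).

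OL against total RNA gave -1.97 ± 0.66 in naive cord (q = 0.0147), -2.16 ± 0.67 at dpi 2 (q = 0.0094), -2.42 ± 0.67 at dpi 10 (q = 0.00453) and -2.05 ± 0.66 at dpi 42 (q = 0.0125) for Ptprz1. Single OL libraries moved these values. The naive value was -3.40 without OL naive 3 and missed the threshold without OL naive 1 (q = 0.0987) or 2 (q = 0.0981), the dpi 2 value was -3.43 without OL dpi 2 library 3 and -1.83 (q = 0.0526) without both libraries of dpi 2 pool 2, and the dpi 42 call was lost without OL dpi 42 library 3 (q = 0.0566). Fitted with naive libraries only, the naive value was -1.91 (q = 0.0735). The change in OL at dpi 2 was -0.78 (q = 0.375), became -2.06 without dpi 2 library 3 (q = 0.0193), and was 0.74 without naive library 3.

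Sox6 encodes a transcription factor that holds OPCs back from differentiating, and lies at chr7:115470872-116038796 (minus strand). Its total RNA stayed in a narrow band, at 22.4, 24.1 and 24.7 CPM in naive cord, 21.7, 22.9 and 23.4 at dpi 2, 20.9, 22.9 and 17 at dpi 10, and 21.2, 18.6 and 20.3 at dpi 42. No change in total RNA passed (-0.24 to -0.07, q 0.764 to 0.944), in the fit of total RNA alone as well (q 0.419 to 0.717). In OL it measured 4.12, 4.36 and 19.9 CPM in naive cord, 6.12, 5.71 and 12.2 at dpi 2, 5.51, 11.5 and 6.85 at dpi 10, and 13.8, 12.4 and 4.11 at dpi 42.

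Sox6 was lower in OL in naive cord (-1.33 ± 0.48, q = 0.0229), at dpi 2 (-1.50 ± 0.48, q = 0.0121) and at dpi 10 (-1.35 ± 0.48, q = 0.0223), and its value of -0.98 at dpi 42 did not pass (q = 0.0862). Without both libraries of dpi 2 pool 2 the dpi 2 value was -1.30 (q = 0.0865). With the tissue pool as a block the dpi 42 value was -1.14 (q = 0.0445). The naive value was -2.32 without OL naive 3 and missed the threshold without OL naive 1 (q = 0.179) or 2 (q = 0.177), and it was -1.27 (q = 0.12) when naive libraries alone were fitted. The dpi 10 call was lost without OL dpi 10 library 1 (q = 0.101) or 3 (q = 0.0759) or total dpi 10 library 2 (q = 0.059). No change in OL passed (-0.25 to 0.10, q 0.764 to 0.963), and without OL naive 3 the dpi 42 value was 1.19 (q = 0.0223).

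C1ql1, a secreted C1q-like protein made by OPCs in the cord, lies at chr11:102939264-102946688 (minus strand) and had the largest OL change of the 9 genes. OL measured 4.20, 3.55 and 11.2 CPM in naive cord, 5.48, 2.19 and 10.1 at dpi 2, 9.44, 16.5 and 11 at dpi 10, and 36.2, 36.8 and 9.63 at dpi 42. At dpi 42, libraries 1 and 2 lay over 3-fold above naive library 3, while library 3 lay within the naive range. The rise at dpi 42 was 2.12 ± 0.48 (4.35-fold, q = 0.00181). It was 2.76 without OL naive 3, 1.29 (q = 0.0159) without the 4 OL libraries highest in astrocyte genes, and missed the threshold when only OL naive and OL dpi 42 were fitted (q = 0.0513).

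Total RNA of C1ql1 measured 22.2, 22.4 and 17.7 CPM in naive cord, 21.2, 19.7 and 24 at dpi 2, 39.4, 36.6 and 34.0 at dpi 10, and 47.4, 31.6 and 43.1 at dpi 42. The dpi 10 and dpi 42 libraries lay above all naive ones, with changes of 0.82 (q = 0.192) and 0.97 (q = 0.144) that did not pass with the shared spread. OL against total RNA was -1.72 ± 0.48 in naive cord (q = 0.00421), -1.86 ± 0.48 at dpi 2 (q = 0.00252), -1.57 ± 0.47 at dpi 10 (q = 0.00738) and -0.56 ± 0.46 at dpi 42 (q = 0.309). The dpi 2 value was -2.53 without OL dpi 2 library 3. At dpi 42, OL libraries 1 and 2 reached 88.9% and 90.5% of the total RNA mean, and library 3 reached 23.6%. The OL value at dpi 10 against naive (0.96, q = 0.179) was called without OL naive 3 (1.66, q = 0.0202), dpi 10 against dpi 2 without OL dpi 2 library 3 (1.73, q = 0.0183), and dpi 42 against dpi 10 without OL dpi 42 library 3 (1.49, q = 0.0261).

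Gpr17, a G protein-coupled receptor of committed precursors, fell in OL at dpi 2 and rose in total RNA at dpi 10. Its total RNA measured 91.1, 92.7 and 70.0 CPM in naive cord, 69.6, 42.6 and 70.1 at dpi 2, 173, 187 and 142 at dpi 10, and 147, 116 and 148 at dpi 42. The dpi 10 and dpi 42 libraries lay above all naive and dpi 2 ones. The rise at dpi 10 was 0.98 ± 0.32 against naive (1.98-fold, q = 0.0236) and 1.46 ± 0.33 against dpi 2 (2.75-fold, q = 0.0064), and dpi 42 was 0.70 above naive (q = 0.133). The dpi 10 call against naive was lost without total naive 3 (q = 0.0973) or total dpi 10 library 1 (q = 0.0575) or 2 (q = 0.0789), and that against dpi 2 without total dpi 2 library 2 (q = 0.055), the pool with Y-linked counts.

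In OL, Gpr17 measured 11, 6.94 and 18 CPM in naive cord, 6.16, 3.12 and 9.87 at dpi 2, 14, 23 and 16.4 at dpi 10, and 14.4, 8.92 and 15.5 at dpi 42. It fell at dpi 2 (-0.91 ± 0.35, q = 0.0432) with overlapping libraries, and was 1.48 ± 0.35 higher at dpi 10 than at dpi 2 (2.79-fold, q = 0.00338) with no overlap. The fall was lost without OL naive 3 (q = 0.23) or OL dpi 2 library 1 (q = 0.0717) or 2 (q = 0.153), and with library sizes alone in place of TMM (-0.75, q = 0.119). OL stood far below total RNA throughout (-2.82 ± 0.35, -3.25 ± 0.36, -3.23 ± 0.35 and -3.40 ± 0.36, q 5.3e-08 to 4.8e-07), at 5.13% to 21.2% of the total RNA mean. The gene shares 188 exon bases with Lims2 on the other strand, and strand use in counting is not given in the sources used here.

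Neu4, a sialidase of committed precursors, lies at chr1:94020451-94028334 (plus strand). It measured 18.5, 17 and 12.7 CPM in naive total RNA, 14.2, 10.2 and 9.46 at dpi 2, 20.9, 21.5 and 21.9 at dpi 10, and 19.9, 22.4 and 21.3 at dpi 42. As for Gpr17, the dpi 10 and dpi 42 libraries lay above the naive ones, but no change against naive passed (-0.51, 0.42 and 0.40, q 0.233 to 0.414). In OL it stood at 2.90, 2.75 and 3.29 CPM in naive cord, 2.49, 4.46 and 5.97 at dpi 2, 2.6, 6.73 and 5.25 at dpi 10, and 4.30, 3.36 and 7.59 at dpi 42. OL was lower than total RNA at all times (-2.43 ± 0.35, -1.39 ± 0.33, -2.14 ± 0.34 and -2.06 ± 0.34, q 3.3e-06 to 0.00136). No change in OL passed (0.53, 0.71 and 0.77, q 0.0885 to 0.236), and leaving out OL dpi 10 library 1 or OL dpi 42 library 2 gave called rises of 1.01 (q = 0.0442) and 0.95 (q = 0.0489).

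Bcas1, a marker of newly formed and early myelinating OLs, lies at chr2:170346991-170427845 (minus strand) and had the highest level of the 9 genes per kb of exon in OL and in total RNA. OL measured 2152, 2179 and 1955 CPM in naive cord, 2685, 3258 and 2874 at dpi 2, 1752, 1906 and 1939 at dpi 10, and 1699, 2073 and 2290 at dpi 42. Total RNA measured 648, 647 and 765 CPM in naive cord, 776, 857 and 880 at dpi 2, 496, 564 and 550 at dpi 10, and 628, 608 and 571 at dpi 42. At dpi 2 both kinds of library lay above all naive ones, and at dpi 10 both lay below. The rise at dpi 2 was 0.49 ± 0.11 in OL (1.40-fold, q = 0.00102) and 0.29 ± 0.11 in total RNA (1.22-fold, q = 0.0402).

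The fall of Bcas1 from dpi 2 to dpi 10 was alike in size, at -0.66 ± 0.11 in OL (q = 1.3e-04) and -0.64 ± 0.11 in total RNA (q = 6.1e-04). Against naive, total RNA of dpi 10 was lower by -0.36 ± 0.11 (q = 0.0142), and OL was not called (-0.17, q = 0.318). The total RNA rise at dpi 2 missed the threshold without total naive 1 (q = 0.137) or 2 (q = 0.144) or total dpi 2 library 2 (q = 0.104) or 3 (q = 0.124), and without both libraries of pool 2 (q = 0.0883). The dpi 10 fall in total RNA was lost without total naive 3 (q = 0.0941) or total dpi 10 library 1 (q = 0.0733), and with library sizes alone (-0.18, q = 0.201). OL against total RNA was 1.61 ± 0.11, 1.81 ± 0.11, 1.80 ± 0.11 and 1.75 ± 0.11 (3.05- to 3.51-fold, q 2.0e-11 to 5.8e-11), and it stayed called when any of the libraries compared was left out.

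Enpp6, a choline-specific glycerophosphodiesterase of newly formed OLs, lies at chr8:46986887-47096762 (plus strand) and moved opposite to Bcas1 in OL at dpi 2 and in total RNA at dpi 10. OL measured 520, 498 and 321 CPM in naive cord, 301, 248 and 218 at dpi 2, 518, 427 and 440 at dpi 10, and 266, 272 and 343 at dpi 42. It fell at dpi 2 (-0.80 ± 0.17, 1.75-fold, q = 5.7e-04), was not called at dpi 10 (0.05, q = 0.931), and was lower again at dpi 42 (-0.60 ± 0.17, q = 0.00748), a call lost when only OL naive and OL dpi 42 were fitted (-0.56, q = 0.0722). The dpi 2 libraries lay below all naive ones, and at dpi 42 library 3 overlapped naive library 3. Against dpi 2 it was 0.85 ± 0.17 higher at dpi 10 (q = 7.1e-04), and from dpi 10 to dpi 42 it fell by 0.65 (q = 0.0222), a call lost without OL dpi 10 library 1 or OL dpi 42 library 1 or 2 (q 0.0766 to 0.0851), or without both dpi 42 libraries of contradictory labels (q = 0.0967).

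Total RNA of Enpp6 measured 68.9, 60.2 and 52.5 CPM in naive cord, 54.0, 44.8 and 47.7 at dpi 2, 90.5, 89.4 and 84.6 at dpi 10, and 51.0, 48.5 and 65.1 at dpi 42. The dpi 10 libraries lay above all others. They were 0.54 ± 0.17 above naive (1.46-fold, q = 0.0155) and 0.85 ± 0.17 above dpi 2 (1.81-fold, q = 0.00219), the first of which was lost without total naive 3 (q = 0.0837). From dpi 10 to dpi 42 the value was -0.68 (q = 0.0961). OL against total RNA was 2.88 ± 0.18 in naive cord (7.37-fold) and 2.39 ± 0.17, 2.39 ± 0.17 and 2.42 ± 0.17 at dpi 2, dpi 10 and dpi 42 (5.24- to 5.35-fold, q 1.2e-11 to 3.0e-10), and it stayed called when any library compared was left out.

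**Figure D3:**
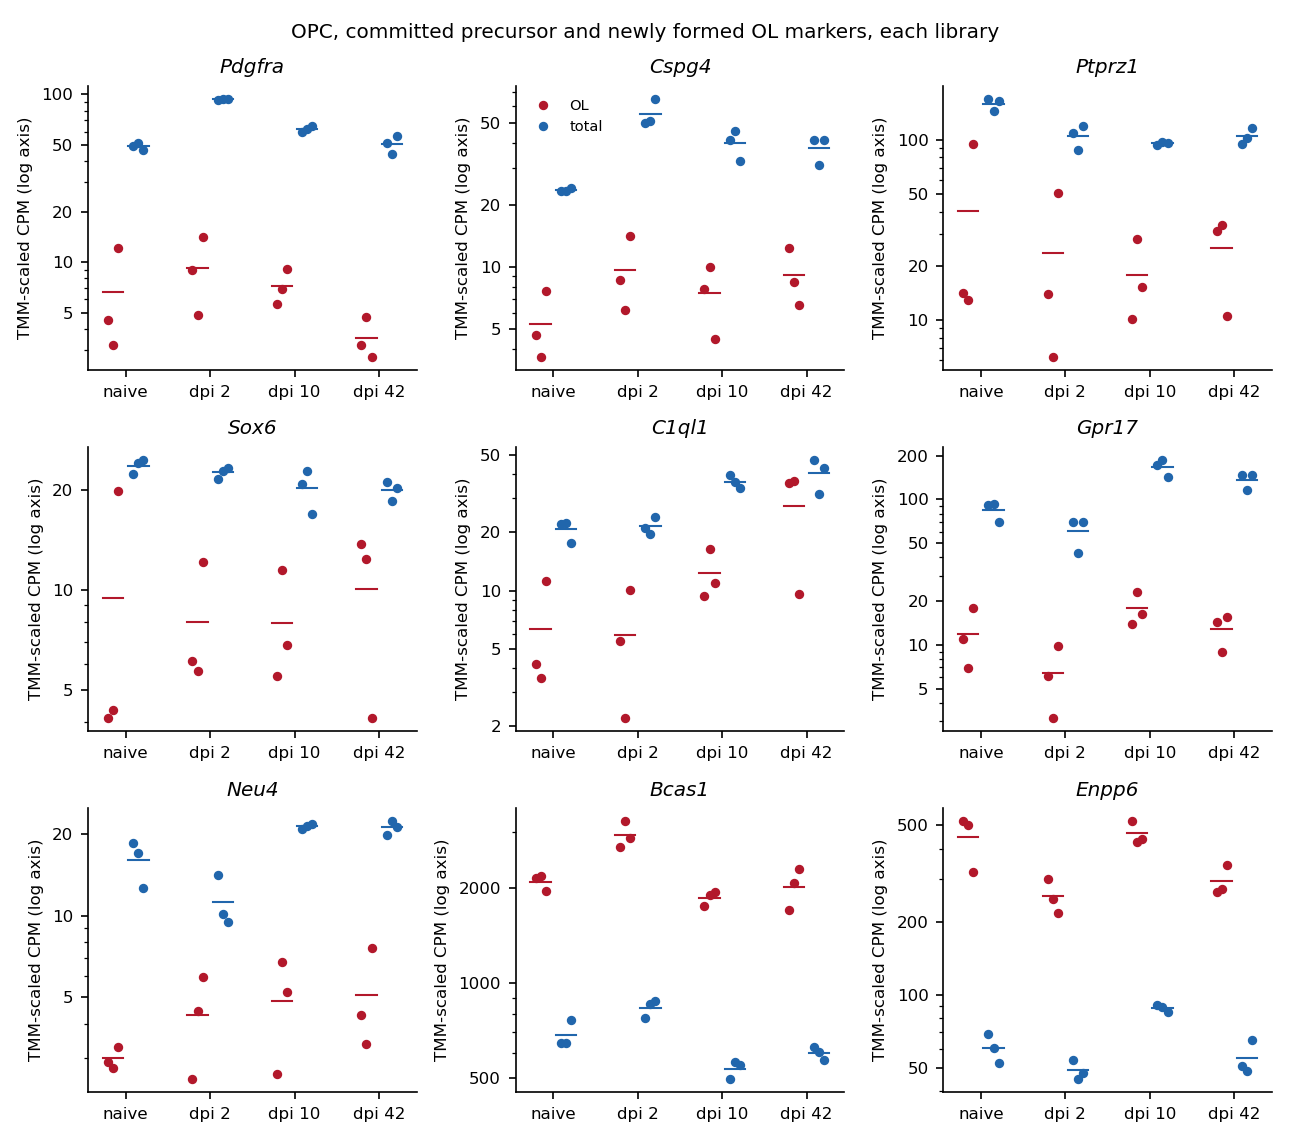
TMM-scaled CPM (log axis) of each of the 9 genes in all 24 libraries, by tissue group, with OL and total RNA drawn apart. Each point is 1 library and each bar a group mean (n = 3). For Ptprz1 the OL naive libraries spread from 12.9 to 94.4 CPM, while those of total RNA span 144 to 169 CPM.

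Between successive times, 2 of the 9 genes rose in OL from dpi 2 to dpi 10 (Gpr17 and Enpp6) and 1 fell (Bcas1), beside 11.7% and 10.6% of all tested genes. The same 3 genes were called with the same signs in total RNA, beside 3.31% and 4.53% of all genes. From dpi 10 to dpi 42 only Enpp6 was called in OL, downward, beside 3.28% of all genes up and 3.90% down. In total RNA none of the 9 was called from dpi 10 to dpi 42 by edgeR (1 at an unadjusted p under 0.05, Enpp6, which DESeq2 called), beside 0.0583% and 0.204% of all genes.

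Whether SCI changed OL enrichment was tested as the difference between the change in OL and that in total RNA. None of the 9 genes was called at any time by edgeR or DESeq2. Over all genes 8.06% were called up and 6.03% down at dpi 2, 4.57% and 3.09% at dpi 10, and 4.37% and 3.47% at dpi 42. Unadjusted p of the edgeR test was under 0.05 for 2 genes at dpi 2, Neu4 (1.04 ± 0.47, q = 0.161) and Enpp6 (-0.49 ± 0.23, q = 0.186). At dpi 10 it was so for Enpp6 alone (-0.49 ± 0.23, q = 0.241), and at dpi 42 for 0 genes. With the tissue pool as a block, Enpp6 was called at dpi 2 (-0.48, q = 0.0330).

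The Enpp6 values depended on which libraries entered the fit, OL naive 3 among them. Without it the difference was -0.89 at dpi 2 (q = 0.00571), -0.81 at dpi 10 (q = 0.0219) and -0.81 at dpi 42 (q = 0.0167). It was also called without OL dpi 2 library 1 (-0.85, q = 0.0245) and without OL dpi 42 library 3 (-0.77, q = 0.0456). In naive OL, library 3 held 530% of the total RNA mean of Enpp6, against 859% and 824% in libraries 1 and 2.

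Single OL libraries ranked alike for some of the OPC genes and for the astrocyte list (Aldh1l1, Slc1a2, Slc1a3, Aqp4, Gja1, Gfap, Aldoc, Fgfr3 and Sox9). The 5 OL libraries with the highest astrocyte sums were also the 5 highest in Ptprz1, at 28.3 to 94.4 CPM against 6.20 to 15.3 in the other 7. They were the 5 highest in Sox6 as well, at 11.5 to 19.9 against 4.11 to 6.85 CPM. For C1ql1 they took ranks 1, 2, 3, 4 and 6 of 12, and for Cspg4 ranks 1, 2, 3, 5 and 7. Pdgfra was spread over ranks 10, 8, 2, 1 and 5 in order of astrocyte sum, with both dpi 42 libraries at 10 and 8. Within naive cord, dpi 2 and dpi 42, though, the libraries high in astrocyte genes were also the highest in Pdgfra. At dpi 10 library 3 held more (9.10 CPM) than library 2 (6.92 CPM). Gpr17 and Neu4 were spread over the ranks too. Within naive cord, dpi 2 and dpi 10, though, the library high in astrocyte genes was the highest in both. It held 18, 9.87 and 23 CPM of Gpr17 and 3.29, 5.97 and 6.73 CPM of Neu4. At dpi 42 library 3, low in astrocyte genes, was the highest in both (15.5 and 7.59 CPM). Enpp6 took ranks 5, 7, 9, 10 and 12 in those 5 libraries, and within each time they were the lowest in Enpp6.

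None of the 9 astrocyte genes was at 0 in any group, and against total RNA only 1 of them was called lower in OL, at dpi 10. In OL naive 3 their sum was 164% of the total RNA mean of the same time, and in naive 1 and 2 it was 32.6% and 29.7%. Ptprz1 in these libraries stood at 59.3%, 8.87% and 8.08% of its total RNA mean, and Sox6 at 83.7%, 17.4% and 18.4%. The part of astrocyte RNA in the OL levels of Ptprz1, Sox6, C1ql1 and the rest of the 9 genes was not tested.

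**Figure D4:**
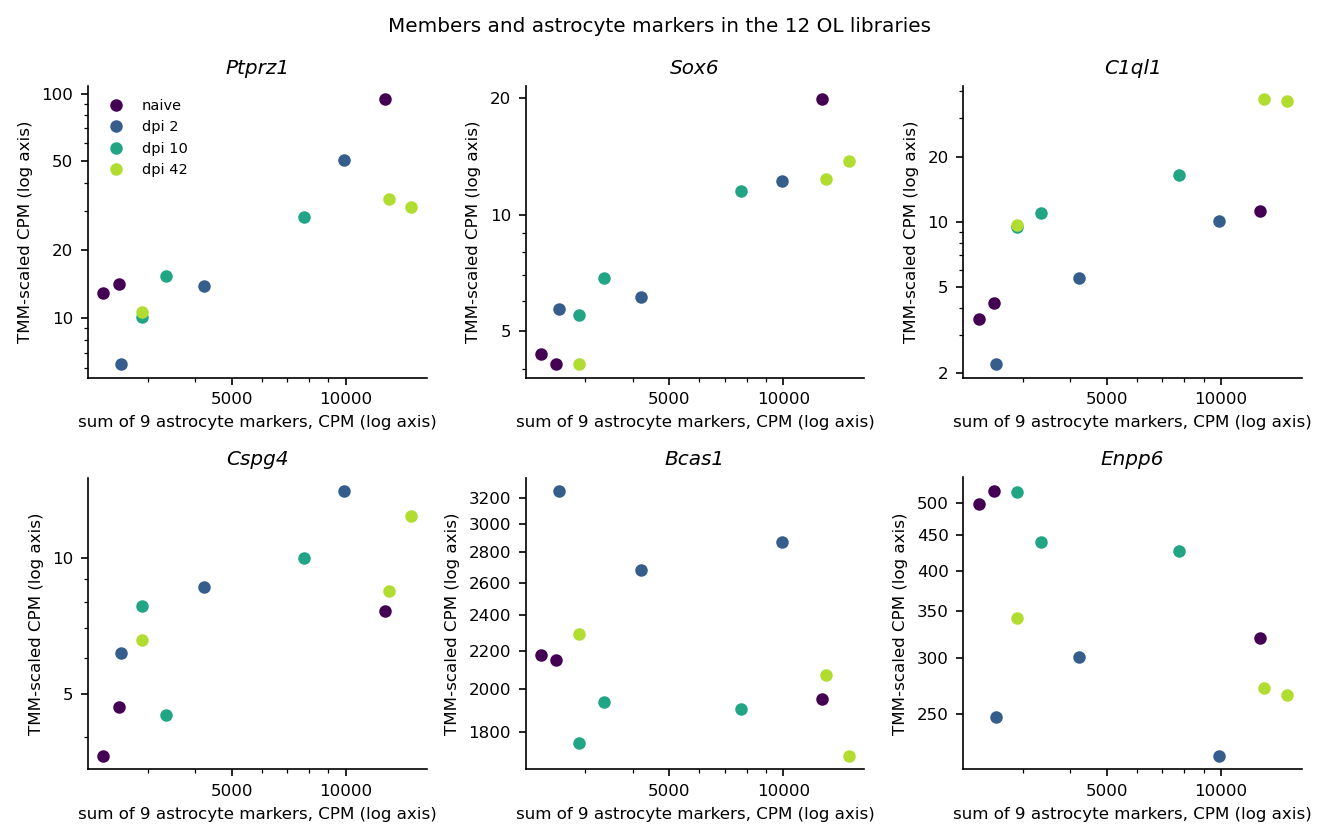
TMM-scaled CPM of Ptprz1, Sox6, C1ql1, Cspg4, Bcas1 and Enpp6 in the 12 OL libraries (y axis, log) against the summed CPM of 9 astrocyte genes (x axis, log). Each point is 1 library coloured by tissue group. The 5 libraries from 7735 CPM upward on the x axis hold the 5 highest Ptprz1 and Sox6 values.

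Leaving out the 4 OL libraries with the highest astrocyte sums was chosen after the values were seen, and it keeps 1 OL library at dpi 42, which is then assumed to vary like the other groups. All 9 genes were then called between OL and total RNA in naive cord, at dpi 2 and at dpi 42, with the same signs, so that Sox6 and C1ql1 were lower in OL at dpi 42 as well. In OL at dpi 10 against naive, where this takes away OL naive 3 and no dpi 10 library, 5 genes were called up, beside 14.3% of all tested genes: Pdgfra (0.89), Cspg4 (0.83), Sox6 (0.91), C1ql1 (1.66) and Gpr17 (0.99). All 24 libraries had given 0 such calls, and Sox6 had been at -0.25. When OL naive 3 alone was left out, Pdgfra (0.89, q = 0.0498) and C1ql1 (1.66, q = 0.0202) were called, while Cspg4, Sox6 and Gpr17 were not. The rest of the 4 libraries were of dpi 2 and dpi 42, which this contrast does not compare. With OL dpi 10 library 2, the next in astrocyte sum, left out as well, 2 of the 5 were called, Pdgfra (0.92, q = 0.0114) and C1ql1 (1.40, q = 0.00132), beside 12.7% of all tested genes. Cspg4 (0.56, q = 0.134), Sox6 (0.55, q = 0.0522) and Gpr17 (0.76, q = 0.0522) then did not pass. Without the 4 libraries, Pdgfra, Cspg4 and Bcas1 were called up in OL at dpi 2 against naive, and Gpr17 and Enpp6 down. Of all tested genes 18.1% rose and 24.1% fell in that comparison. The dpi 42 value then rested on 1 OL library, with C1ql1 at 1.29 and Neu4 at 1.41 against naive, and with Enpp6 lower.

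Other genes of the same stages, from lists compiled by hand, were described in the same way. For each comparison, the shares of all tested genes called are those given above beside the 9 genes. Of 14 further OPC genes, none was higher in OL and 12, 9, 11 and 10 were lower in naive cord and at dpi 2, dpi 10 and dpi 42, with medians of -2.58, -2.29, -2.20 and -2.20. Tnr, a tenascin of the extracellular matrix, was 9.87-fold lower in OL in naive cord (-3.30 ± 0.20, q = 9.5e-12), and Cacng4, an auxiliary protein of AMPA receptors, 5.24-fold (-2.39 ± 0.28, q = 2.2e-07). In total RNA against naive, 0 rose and 1 fell at dpi 2 (Tnr, -0.82, q = 0.00113), 1 rose (Matn4, 1.50, q = 0.00221) and 1 fell (Megf11, -1.08, q = 0.0406) at dpi 10, and 1 rose at dpi 42 (Matn4, 1.25, q = 0.0129). The list medians in total RNA were -0.49, -0.20 and -0.18, beside -0.10, -0.10 and -0.08 over all genes.

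In OL, 1 of the 14 rose at dpi 2 (Matn4, 1.51) and Tnr fell (-0.50). At dpi 10, Emid1 (3.47, q = 8.9e-04), Matn4 (1.89) and Tnr (0.85) rose, and at dpi 42 Matn4 (2.62, q = 2.0e-05) and Emid1 (2.76, q = 0.0025). List medians in OL were -0.24, -0.35 and -0.13, beside 0.00 over all genes. OL enrichment changed for none of the 14 at any time.

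Of 11 further committed precursor and newly formed OL genes, 10 were tested, and they split between OL and total RNA. In naive cord 5 were higher in OL and 3 lower, at dpi 2 it was 4 and 3, and at dpi 10 and dpi 42 it was 2 and 5. Rnf122, an E3 ubiquitin ligase, was 3.61-fold higher in OL in naive cord (1.85 ± 0.14, q = 2.4e-10), and Bmp4, a bone morphogenetic protein, was 13.4-fold lower in OL at dpi 2 (-3.75 ± 0.61, q = 2.2e-05). Casr, the calcium-sensing receptor, was at 0 in all OL libraries of naive tissue, dpi 10 and dpi 42.

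In total RNA, 4 of these 10 rose and 2 fell at dpi 2, 6 rose at dpi 10 and 4 at dpi 42. Of all tested genes 16.4% rose and 20.8% fell at dpi 2, 13.9% rose at dpi 10 and 10.4% at dpi 42. The list medians were 0.01, 1.19 and 0.55, beside -0.10, -0.10 and -0.08 over all genes. The dpi 10 rises included Bmp4 (3.11 ± 0.56, 8.61-fold, q = 2.0e-04), Rras2 (2.15 ± 0.25, q = 1.4e-06), Rnf122 (1.57 ± 0.14, q = 3.2e-08) and Tcf7l2, a Wnt pathway factor of newly formed OLs (1.29 ± 0.26, q = 5.1e-04). In OL, 3 rose and 2 fell at dpi 2, 2 rose at dpi 10, and 1 rose and 1 fell at dpi 42, with medians of -0.25, 0.16 and 0.08. OL enrichment fell for 3 at dpi 2, 3 at dpi 10 and 2 at dpi 42, beside 6.03%, 3.09% and 3.47% of all tested genes. Tcf7l2 was among them each time (-1.58, -1.31 and -1.73, q 0.00476 to 0.0277), and no gene of the list was up.

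The transcription factors Olig1, Olig2, Sox10, Nkx2-2 and Myrf, which act through the whole lineage, were all higher in OL at each time. They fell in OL at dpi 2 in 4 of 5 cases, at dpi 10 in 1 and at dpi 42 in 2, and none was called in total RNA against naive at any time. From dpi 2 to dpi 10, Olig1 fell in total RNA (-0.55, q = 0.00527).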

How the data were processed

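PolyA RNA, per the labels, of 24 libraries was sequenced, 12 of the OL translatome and 12 of total spinal cord RNA, with n = 3 tissue pools for each of 8 groups. The authors aligned reads to mm10 (GRCm38.p6) with STAR and deposited raw HTSeq counts per gene, without normalization, as 1 table of 21965 genes, and all of its columns were used. The submitters' processing notes name HTSeq 0.10.0 and FastQC 0.10.1. Strandedness of the counting is not given in the sources used here.

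Testing used edgeR 4.0.16 under R 4.3.3. The 17167 genes whose counts summed to 10 or more over the table were kept, TMM scaled the libraries, and the quasi-likelihood fit had 1 mean for each of 8 groups over all 24 libraries. OL was compared with total RNA at each time, injured with naive tissue within each kind, successive times with each other, and the change in OL with that in total RNA (OL enrichment change), 17 contrasts in all. p-values measure the spread between pools and were adjusted over all tested genes of a contrast. The test was checked on simulated data. Alternatives were DESeq2 1.42.0, its size factors, library sizes alone, other count filters, blocks, only the groups compared, and each library left out. A library left out was followed only in the contrasts that hold its group.

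The 9 genes were given by name, and they and the gene lists were chosen with earlier results of these data known. A few list genes are not reported here and were left out of the lists' counts, medians and sums. List genes named are up to 4 of each list with the smallest unadjusted p in the comparison described, and for each of the 9 genes the 3 genes (at least 1 CPM on average in OL) whose log2 CPM had the highest Pearson r over the 12 OL libraries. The table's genes were matched to a GENCODE annotation of GRCm38 by identifier, with a symbol for 21939, and promoter sequences are from RefSeq.

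OL and total RNA libraries were paired by tissue pool, by the tissue numbers in the names of the table's columns. Deviations from the group mean correlated at r of 0.0408 to 0.137 in naive cord, 0.0879 to 0.108 at dpi 2, 0.0245 to 0.063 at dpi 10 and -0.0109 to 0.02 at dpi 42 for the same pool, and at -0.105 to 0.0502, -0.0781 to -0.0184, -0.0365 to 0.0117 and -0.028 to 0.0253 for different pools.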

Additional observations from a re-analysis of the deposited data

How the results depend on the processing

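Of the 9 genes, 2 were higher and 4 to 7 lower in OL than in total RNA under every alternative run. Over 2448 alternatives of single genes, 2186 kept direction and side of the threshold, 72 newly passed it and 53 no longer passed it. A further 134 changed sign with no call in either fit, and 3 reversed, changing sign with a call in either fit. The cause was not tested for any of these.

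With each library of the groups compared left out in turn, genes lower in OL numbered 5 to 7 in naive cord, 7 to 7 at dpi 2, 6 to 7 at dpi 10 and 4 to 5 at dpi 42. In OL against naive, 1 to 3 rose and 1 to 3 fell at dpi 2, 0 to 2 rose at dpi 10, and 1 to 3 rose and 1 to 2 fell at dpi 42. In total RNA, 1 to 2 rose at dpi 2 (3 with all libraries), and 0 to 2 rose and 0 to 1 fell at dpi 10. OL enrichment fell for 0 to 1 gene at each time. From dpi 2 to dpi 10, 2 to 3 rose in OL and 1 to 2 in total RNA, and from dpi 10 to dpi 42, 0 to 1 rose and 0 to 1 fell in OL.

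When only the groups compared were fitted, 1 gene rose and 1 fell in OL at dpi 2, beside 14% and 12.1% of all tested genes. At dpi 42, 0 rose and 0 fell in OL, beside 10.2% and 11%. In total RNA 1 fell at dpi 2, 6 rose and 2 fell at dpi 10, and 4 rose and 1 fell at dpi 42, while all tested genes called there were 20.1% to 27.9% up and 17.9% to 26.1% down. From dpi 2 to dpi 10, 4 rose and 3 fell in total RNA, beside 9.32% and 11% of all tested genes. From dpi 10 to dpi 42, 0 fell in OL, beside 0.234%, and 1 in total RNA, beside 4.44%.

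DESeq2's test gave 2 risen and 2 fallen in OL at dpi 42, and from dpi 10 to dpi 42, 2 fallen in OL and 1 in total RNA. DESeq2 size factors gave 1 fallen in OL at dpi 2. Library sizes alone gave 1 fallen in OL at dpi 2, 2 risen at dpi 42, 0 fallen in total RNA at dpi 10, and 1 fallen from dpi 10 to dpi 42. They shifted the median of all genes by -0.57 to -0.50 for OL against total RNA and by 0.11 to 0.20 for total RNA against naive. The share of calls that were upward went from 45% to 46.7% down to 18.5% to 24.4% for OL against total RNA, from 47.9% to 52.8% up to 61.6% to 70.8% for OL against naive, from 43.3% to 46.2% up to 62.5% to 65.4% for total RNA against naive, and from 59.7% to 48.5% for OL enrichment at dpi 10.

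With the replicate block by tissue pool, 1 gene (Enpp6) fell in OL enrichment at dpi 2 and Sox6 was lower in OL at dpi 42, and no other call changed. Injured and naive pools share only a number (r of -0.309 to 0.248). With that number as a replicate block, 1 gene rose in OL at dpi 2, as Cspg4 missed the threshold (q = 0.0601), and Neu4 was called in total RNA from dpi 2 to dpi 10 (q = 0.0479).

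Without both libraries of dpi 2 pool 2, 1 gene fell in OL at dpi 2. Without both dpi 42 libraries of contradictory labels, 0 fell in OL from dpi 10 to dpi 42. An alternative chosen after the data were seen left out the 4 OL libraries highest in astrocyte genes. It leaves 1 OL library at dpi 42, assumed to vary like the other groups. Without the 4 libraries, 5 genes rose in OL at dpi 10, beside 14.3% of all tested genes. From dpi 2 to dpi 10, 4 rose in OL, beside 19.4%. OL enrichment fell for 1 gene at dpi 2, beside 14.7%. At dpi 10 it rose for 1 and fell for 1, beside 6.56% and 7.79%. With OL dpi 10 library 2 left out too, 2 rose in OL at dpi 10, beside 12.7% of all tested genes. OL enrichment then fell for 1 at dpi 2 and 1 at dpi 10, beside 15.1% and 6.99%. The reversed values were Sox6 in OL at dpi 10 (0.91), Sox6 in OL enrichment at dpi 10 (1.02) and Ptprz1 in OL from dpi 2 to dpi 10 (0.88), all without the 4 libraries. The lowest count of a gene in any library ran from 54 (C1ql1) to 16719 (Bcas1), and this depth limits the values of the low genes.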

Other observations

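The genes whose log2 CPM tracked each of the 9 genes over the 12 OL libraries differed by gene, and are given as a description, since these libraries share tissue pools and depth. Ptprz1 ran with S1pr1 (Pearson r = 0.99, Spearman rho = 0.96), Fgfr3 (0.98, 0.92), which is on the astrocyte list, and Lrp1 (0.98, 0.92). Sox6 ran with Gpr37l1 (0.97, 0.94), Serpine2 (0.97, 0.91) and Ednrb (0.97, 0.89). C1ql1 ran with A2m (0.98, 0.99), C3 (0.98, 0.92), the central complement component, and Cpxm2 (0.97, 0.94). Enpp6 ran with Pde8a (0.98, 0.96), a cAMP phosphodiesterase, Slc12a2 (0.97, 0.96), a sodium-potassium-chloride cotransporter, and Clcn2 (0.97, 0.90), a chloride channel. Bcas1 ran with Erg28 (0.96, 0.96), Ptpn5 (0.95, 0.90) and Zrsr2 (0.95, 0.95). Values were lower for Cspg4 (Glis2, Sap30 and Lix1l, r of 0.93 to 0.94), Gpr17 (Crmp1, Filip1 and Tpp1, 0.89 to 0.91), Pdgfra (Tor4a, Akap13 and Lactb2, 0.86 to 0.88) and Neu4 (Pnck, Pla2g15 and Flt1, 0.82 to 0.88).

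Markers of other cells moved in OL as well. All 7 microglia and macrophage genes (Aif1, Cx3cr1, Itgam and others) stayed lower in OL than in total RNA at each time and rose in OL at each time after injury, with list medians of 2.77, 3.96 and 2.41 on the log2 scale. All 5 fibroblast genes rose in OL at each time too, and their sum went from 47.9 to 83.4 CPM in naive OL to 522 to 605 CPM at dpi 10. All 8 proliferation genes rose in OL at dpi 2, where their sum was 23.8 to 46.2 CPM against 198 to 217 CPM in total RNA. All 5 neuron genes were lower in OL at each time, as were the 5 endothelial genes. The Schwann cell list (Prx, Cdh19 and others, 5 genes) summed to 158 to 217 CPM in OL at dpi 10 and 148 to 190 CPM at dpi 42, against 39.5 to 71.6 and 48.2 to 117 CPM in total RNA. The part of these cells in the levels of the 9 genes was not tested.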
